A study of Homo sapiens with 18 samples.

Results

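The cells described here are HEK293 cells, a human embryonic kidney line, that had lost Gαs through CRISPR-Cas9 (Gαs KO), and the question was whether isoproterenol still moved any gene without this protein. The 6 libraries of these cells, 3 with vehicle (basal) and 3 with isoproterenol, were chosen by their labels from 18 libraries. The other 12 came from wildtype and β-arrestin1/2 KO cells under the same 2 conditions, 3 libraries each, and serve here only for comparison. All groups carried a plasmid for a receptor that isoproterenol activates, were serum-starved overnight and, at 48 h after transfection, were given vehicle or isoproterenol (1 μM) over 1 h. Whether the Gαs KO line is a single clone is not given in the sources used here. The labels call the replicates biological, and p-values measure the spread between replicates. Where all 18 libraries were fitted together, that spread was taken over all the lines, not from Gαs KO cells alone. A fit of the 6 Gαs KO libraries is given beside it. These are bulk libraries, in which fewer cells with a transcript and less of it per cell cannot be told apart.

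Isoproterenol is a synthetic agonist of β-adrenergic receptors, which couple to Gαs. The active receptor loads Gαs with GTP, Gαs turns on adenylyl cyclase, and the cAMP made activates protein kinase A (PKA), which phosphorylates the transcription factor CREB on cAMP response elements (CRE) of its target genes. The same receptor can feed the ERK cascade, which acts on immediate-early genes in part through serum response factor (SRF) bound to CArG boxes. β-arrestins bind the phosphorylated receptor and take it into the cell.

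Promoters of 4 genes the comparison turns on are shown, EGR1 and CCN2 for genes whose conditions did not overlap in Gαs KO cells, and DUSP1 and SIK1 for genes that overlapped there and were called in both other lines. Each is the stretch of 250 bases before the RefSeq gene start in GRCh38.p14, written along the gene's strand, and capitals mark the CArG box, the full CRE (TGACGTCA) or its half-site (TGACG), searched on both strands. A full CRE also holds its half-site.
EGR1: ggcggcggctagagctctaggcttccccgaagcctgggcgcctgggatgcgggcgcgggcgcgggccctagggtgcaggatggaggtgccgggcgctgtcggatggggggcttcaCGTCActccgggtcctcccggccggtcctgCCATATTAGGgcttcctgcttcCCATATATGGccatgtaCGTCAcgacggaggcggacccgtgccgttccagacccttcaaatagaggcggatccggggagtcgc
CCN2: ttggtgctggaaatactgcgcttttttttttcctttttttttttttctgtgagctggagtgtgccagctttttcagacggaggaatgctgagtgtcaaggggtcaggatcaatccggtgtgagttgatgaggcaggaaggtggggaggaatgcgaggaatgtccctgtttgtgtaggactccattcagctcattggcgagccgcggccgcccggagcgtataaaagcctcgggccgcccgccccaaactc
DUSP1: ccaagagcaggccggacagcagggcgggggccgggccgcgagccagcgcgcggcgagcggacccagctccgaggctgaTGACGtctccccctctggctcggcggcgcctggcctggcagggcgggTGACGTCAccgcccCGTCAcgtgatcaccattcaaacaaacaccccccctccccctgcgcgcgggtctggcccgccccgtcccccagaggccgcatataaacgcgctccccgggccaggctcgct
SIK1: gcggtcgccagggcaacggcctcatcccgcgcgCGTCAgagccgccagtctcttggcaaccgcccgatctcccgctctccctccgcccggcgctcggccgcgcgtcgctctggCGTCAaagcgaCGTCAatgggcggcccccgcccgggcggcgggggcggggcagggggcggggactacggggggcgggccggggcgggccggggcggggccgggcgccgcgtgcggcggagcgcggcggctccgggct
The EGR1 stretch (chr5:138465229-138465478, plus strand) held 2 CArG boxes and 2 CRE half-sites. The CCN2 stretch (chr6:131951373-131951622, minus strand) held none of the 3 motifs. In DUSP1 (chr5:172771196-172771445, minus strand) a full CRE and 4 half-sites were found, and in SIK1 (chr21:43427132-43427381, minus strand) 3 half-sites. Of 35116 RefSeq promoters of this length, 1.16% held a CArG box, 1.65% a full CRE and 21.2% a half-site. The 4 stretches were picked for display and set up no rule: of the other promoters searched, those of FOS, JUNB and BTG2 held 1 half-site and no CArG box, and those of KLF6, NR4A1 and ACTN4 held none of the motifs. These matches describe the letters of 1 stretch per gene only, and motifs further away or at other starts of a gene were not searched.

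The 6 Gαs KO libraries held 17908597 to 24182597 estimated read counts, and the SD of the per-gene log2 difference was 0.187 to 0.253 within a condition and 0.192 to 0.232 between a vehicle and an isoproterenol library. Of 10 markers of HEK293 cells, 9 (LHX1 was the exception) had a mean of at least 10 normalized counts, and their summed level ran from 58795 to 59948 with vehicle and from 58417 to 58652 with isoproterenol. Over 10 counts were also 2 of 5 blood, 0 of 4 hepatocyte, and 2 of 4 endothelial, striated muscle and fibroblast markers. GNAS, the gene of Gαs (ENSG00000087460, chr20:58839718-58911192, plus strand, GENCODE 29 on GRCh38), was at 1253, 1173 and 1365 normalized counts in the vehicle libraries and at 1205, 1323 and 1339 in the isoproterenol libraries. The vehicle mean was 5.01% of the wildtype vehicle mean, which was 25207 ± 7249 (SD, n = 3). One wildtype vehicle library, replicate 1, stood apart from the others in GC content. The SD of its log2 difference was 0.755 from wildtype vehicle replicate 2 and 0.686 from replicate 3, beside 0.274 between those replicates. The fit of all 18 libraries takes its spread from every line, so this library also enters the error of the Gαs KO comparison. The differences from wildtype cells for EGR1, CCN2, CCN1 and ETS2, and the count of such differences called, are also given without it. So are the Gαs KO adjusted p-values of EGR1, CCN2 and CCN1.

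No gene was called between isoproterenol and vehicle in Gαs KO cells. Across all 18 libraries edgeR (quasi-likelihood) put 0 of 15530 genes (0%) under a Benjamini-Hochberg adjusted p of 0.05. At an unadjusted p under 0.05 stood 164 genes (1.06%), of which 89 were higher (0.573%) and 75 lower (0.483%). The fit of the 6 Gαs KO libraries alone (the own fit), whose common dispersion was 0.00505 against 0.0278 over all libraries, also called 0 of 14757 genes (0%), with 686 (4.65%) at an unadjusted p under 0.05, of which 345 were higher (2.34%) and 341 lower (2.31%) with isoproterenol. The same settings called 64 genes higher (0.412%) and 8 lower (0.0515%) in wildtype cells, and 148 higher (0.953%) and 27 lower (0.174%) in β-arrestin1/2 KO cells. DESeq2's Wald test called 9 genes in Gαs KO cells over all libraries and 8 in their own fit, and limma voom with sample quality weights called 2 in either fit. Only EGR1, RAB33B and ALOX5 were among the DESeq2 calls of both fits. A mean of at least 100 counts was reached by 2 of the 9 and 6 of the 8.

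**Figure D1:**
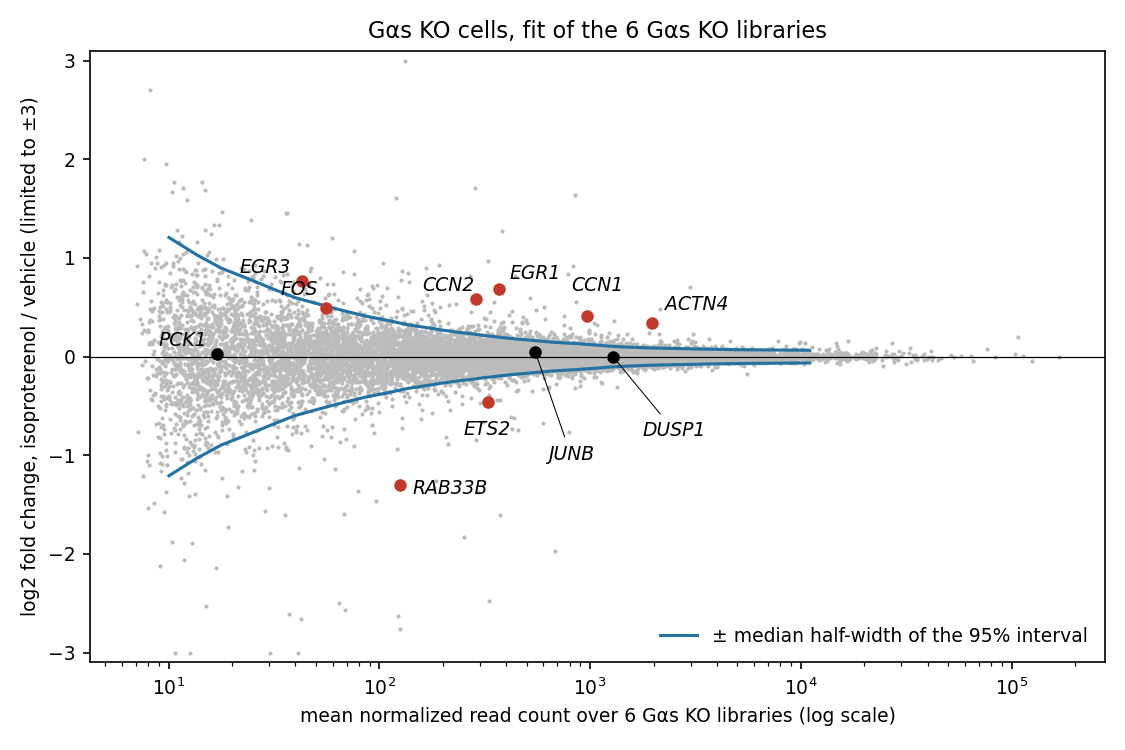
Each grey point is a gene of the fit of the 6 Gαs KO libraries, with its mean normalized read count on a logarithmic x axis and its log2 fold change, isoproterenol over vehicle, on the y axis. Blue lines give the median half-width of the 95% interval at that count, and labelled genes are red where far from 0, with EGR1 at 0.69, or black where near 0, with DUSP1 at -0.01.

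EGR1 (ENSG00000120738, chr5:138465490-138469315, plus strand), an immediate-early zinc finger transcription factor, had the smallest p in both fits. Its normalized counts were 261, 307 and 282 with vehicle and 463, 435 and 471 with isoproterenol. The 3 isoproterenol libraries lay above all 3 vehicle libraries, and the means stood at 284 ± 23 and 456 ± 19 (SD, n = 3), a ratio of 1.61. The log2 fold change was 0.68 with a 95% interval from 0.39 to 0.98 over all libraries (edgeR, adjusted p = 1). In the own fit the interval ran from 0.50 to 0.87 (edgeR, adjusted p = 0.109). It was called by DESeq2 (adjusted p = 0.00995 over all libraries and 8.1e-06 in the own fit) and by limma voom (0.00906 and 0.0418). In the own fit edgeR called it among genes of 10 counts or more in each library (adjusted p = 0.039) and without legacy mode (0.0497). Over all libraries edgeR called it with GC and length offsets plus a replicate block (adjusted p = 0.0376). With wildtype vehicle replicate 1 left out of that fit, without offsets or block, edgeR gave an adjusted p of 0.144. Across the 19 alternatives to the fit of all libraries its log2 fold change stayed between 0.63 and 0.75, with adjusted p from 0.00906 to 1, and 3 of them called it. With 3 libraries against 3 an exact two-sided permutation test could not go below 0.1, which is the value for EGR1.

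The EGR1 estimate was the largest of the 3 lines in Gαs KO cells, with no difference between lines called. EGR1 was picked for its small p in this line, which favors a large estimate there. Its Gαs KO vehicle counts also lay below all those of the β-arrestin1/2 KO line. Wildtype cells had 408, 262 and 382 with vehicle and 405, 370 and 466 with isoproterenol, which overlap, for a log2 fold change of 0.24 (edgeR, adjusted p = 0.533), or 0.36 without wildtype vehicle replicate 1. β-arrestin1/2 KO cells went from 336, 404 and 395 to 523, 580 and 565, a log2 fold change of 0.56 (edgeR, adjusted p = 0.0796). The Gαs KO response minus the wildtype response was 0.45 with an interval from 0.03 to 0.87 (edgeR, adjusted p = 0.889), or 0.33 from -0.06 to 0.71 without that library. Minus the β-arrestin1/2 KO response it was 0.13 from -0.29 to 0.55 (edgeR, adjusted p = 0.998).

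CCN2 (ENSG00000118523, chr6:131948176-131951373, minus strand) and CCN1 (ENSG00000142871, chr1:85580761-85583962, plus strand), matrix-associated proteins of a shared family and known targets of SRF and YAP, had smaller estimates. CCN2 stood at 240, 231 and 221 with vehicle and at 345, 363 and 327 with isoproterenol. CCN1 stood at 811, 914 and 783 and then at 1167, 1068 and 1084. In both genes the conditions did not overlap. The log2 fold changes were 0.58 and 0.40. Their 95% intervals ran from 0.26 to 0.90 for CCN2 and from 0.10 to 0.71 for CCN1 over all libraries, and from 0.39 to 0.78 and 0.26 to 0.55 in the own fit. Over all libraries edgeR gave both an adjusted p of 1, DESeq2 gave CCN2 an adjusted p of 0.59 and CCN1 one of 1, and limma voom called CCN1 (adjusted p = 0.00906) but not CCN2 (0.0778). With wildtype vehicle replicate 1 left out, edgeR gave adjusted p = 0.103 for CCN2 and 0.0713 for CCN1 in Gαs KO cells. In the own fit edgeR gave adjusted p = 0.117 for CCN2 and 0.157 for CCN1 and limma voom 0.138 for both, and DESeq2 called both (adjusted p = 0.00437 and 0.0003).

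The CCN genes were called by edgeR in both lines with Gαs. CCN2 rose by 1.59 on the log2 scale in wildtype cells and by 1.49 in the β-arrestin1/2 KO line, and CCN1 by 1.22 and 1.46. The Gαs KO response of CCN2 minus the wildtype one was -1.01 with an interval from -1.45 to -0.56 (edgeR, adjusted p = 0.0921), and the CCN1 difference was -0.82 from -1.25 to -0.38 (adjusted p = 0.286). Without wildtype vehicle replicate 1 they were -1.26 and -1.10, and both were called (edgeR, adjusted p = 7.46e-05 and 4.87e-06). Against β-arrestin1/2 KO cells the CCN1 difference of -1.05 was called (edgeR, adjusted p = 0.0292) and that of CCN2, -0.90, was not (adjusted p = 0.114).

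**Figure D2:**
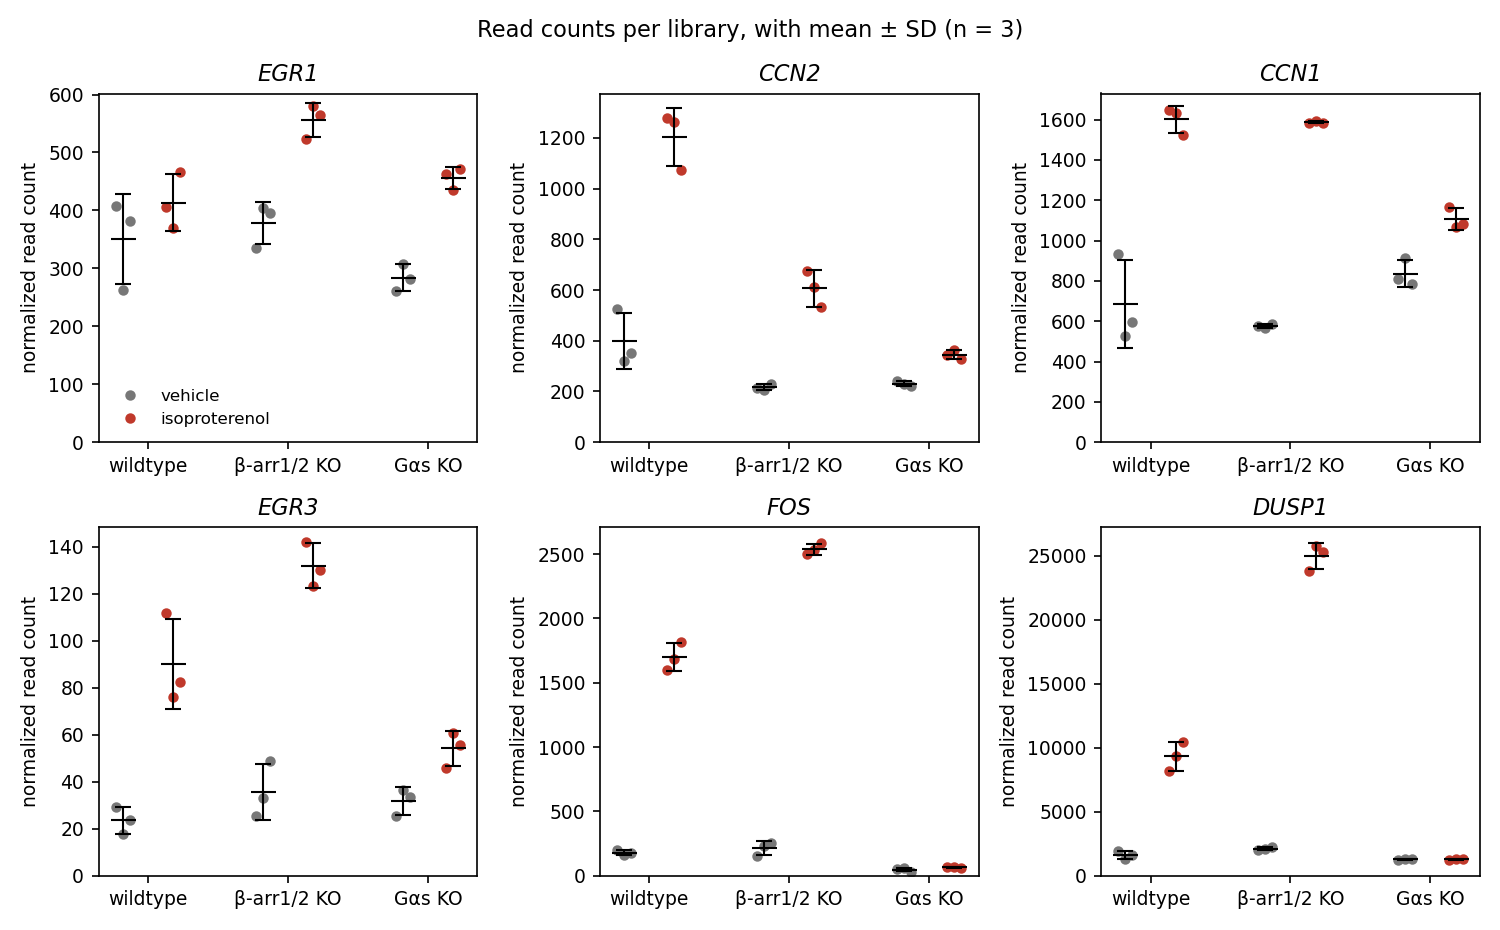
Normalized read counts (y axis, from 0) of 6 genes in each library of the 3 cell lines, with the mean and SD of 3 libraries in black, vehicle in grey and isoproterenol in red. In Gαs KO cells the isoproterenol points of EGR1, CCN2, CCN1, EGR3 and FOS sit above all vehicle points, and those of DUSP1 overlap them. The EGR1 means stand at a ratio of 1.61 in Gαs KO cells.

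Among the immediate-early genes of the ERK and SRF pathway, 27 of 28 listed genes were tested and 0 were called in Gαs KO cells. In 10 of the 27 the isoproterenol libraries lay above all vehicle libraries, and in 1 below, where 4.9% and 5.57% of all genes did so, or 4.86% and 5.56% of genes with a mean of at least 10 counts. The 10 were FOS, EGR1, EGR3, IER2, KLF2, KLF6, CCN1, CCN2, ZFP36 and ETV5, and the 1 was KLF10. The median log2 fold change was 0.05, with the middle 50% of members from -0.04 to 0.31, beside a median of 0.00 over all genes tested. The list's median ran from 0.07 to 0.11 with each of the Gαs KO libraries left out in turn. Averaged over members, the log2 level relative to the vehicle mean was 0.01, 0.02 and -0.03 in the vehicle libraries and 0.16, 0.16 and 0.18 in the isoproterenol libraries, so the conditions did not overlap. The same average lay higher without overlap in 6 of the 19 lists described here, where 4.9% of single genes did. The others were calcium and NFAT targets (0.175 to 0.275 against at most 0.108) and ERK feedback inhibitors (0.103 to 0.179 against at most 0.066). ATF4 and unfolded protein response genes, hypoxia and glycolysis genes, and cell cycle genes made up the rest. Some lists share members, and an average over all genes was not made per library, so this does not show that a pathway moved. Single members with wide intervals (PTGS2 and RRM2) or moved by 1 library (DUSP8) enter some of these averages. The wildtype median of the immediate-early list was 0.49 and the β-arrestin1/2 KO median 0.59.

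The members of this list differed in size. EGR3, a relative of EGR1, went from 25.2, 36.5 and 33.5 to 46.0, 60.7 and 55.7 counts, a log2 fold change of 0.77 with an interval from 0.22 to 1.31 (edgeR, adjusted p = 1). FOS, the AP-1 subunit, was at 51.4, 57.2 and 31.0 with vehicle and at 68.5, 64.6 and 62.5 with isoproterenol, a log2 fold change of 0.50 from 0.05 to 0.95 (edgeR, adjusted p = 1), which was 0.27 without vehicle replicate 3. The wildtype response of FOS was 3.25, and the difference of -2.76 between the lines was called (edgeR, adjusted p = 6.43e-05). KLF6, another zinc finger factor, was at 2066, 2065 and 1977 with vehicle and 2258, 2296 and 2238 with isoproterenol, and its log2 fold change of 0.15 had an interval from -0.07 to 0.38 over all libraries, which includes 0 (edgeR, adjusted p = 1), and from 0.08 to 0.23 in the own fit (adjusted p = 0.821). JUNB, FOSB, MYC, IER3 and JUN overlapped between conditions, with log2 fold changes of 0.05, 0.14, -0.06, 0.02 and -0.06.

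Genes driven by cAMP and CREB had a median close to that of all genes. The list had 31 of 32 genes tested and 0 called, with a median log2 fold change of 0.03 and the middle 50% of members from -0.04 to 0.14, where wildtype cells had 0.78 and the β-arrestin1/2 KO line 1.23. PCK1, the gluconeogenic enzyme and a classical CRE gene, had 15.9, 17.8 and 16.8 counts with vehicle and 23.5, 11.8 and 15.9 with isoproterenol, and its vehicle mean was 6.08% of the wildtype vehicle mean. NR4A2, a nuclear receptor induced through CREB, had 116, 108 and 109 and then 93.9, 143 and 119. SIK1, a kinase that restrains CREB coactivators, had 235, 145 and 164 and then 210, 182 and 212. BTG2, an antiproliferative gene, had 954, 962 and 993 and then 942, 828 and 1119.99. In each of these genes the conditions overlapped. In the list 4 members lay higher without overlap, FOS, VGF (0.40), BDNF (0.23) and ATF3, and 1 lower, the phosphodiesterase PDE4D (-0.09), beside 4.9% and 5.57% of all genes. VGF was at 0.24 without isoproterenol replicate 3. ATF3, a stress-induced factor, showed 0.12 with an interval from -0.05 to 0.29 over all libraries (edgeR, adjusted p = 1) and from 0.03 to 0.21 in the own fit (adjusted p = 0.983), against 0.89 in wildtype cells.

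How small a change these libraries leave room for depended on the count. Over all genes the median half-width of the 95% interval was 0.344 log2 units (1.27-fold) in the fit of all libraries and 0.173 (1.13-fold) in the own fit. The whole interval lay within a 2-fold change for 12651 genes (81.5%), within 1.5-fold for 10637 (68.5%) and within a ratio of 5 to 4 for 4903 (31.6%). In the own fit these were 13098 (88.8%), 11500 (77.9%) and 9171 (62.1%). For genes over 1000 counts the own fit held 98.9% within that smallest limit, and for genes of 10 to 100 counts 14.6% within 1.5-fold and 56.8% within 2-fold. None of the 189 genes under 10 counts lay within 2-fold.

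A single gene had to show a larger change than its interval to be called among so many. To reach an adjusted p of 0.05 on its own, a gene needed a median log2 change of 1.13 (2.19-fold) over all libraries and 0.69 (1.61-fold) in the own fit, or 0.36 (1.28-fold) in the own fit for genes over 1000 counts and 2.71 (6.55-fold) for genes of 10 to 100 counts. EGR1, at 0.68, would have needed 0.98 over all libraries and 0.74 in the own fit. PCK1, at its low count, would have needed 2.31 and 3.30, beside a wildtype response of 3.23. All these needed changes use the standard error at the observed counts, which a real rise would alter. Whether a PCK1 rise of the wildtype size would have been called was not tested.

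**Figure D3:**
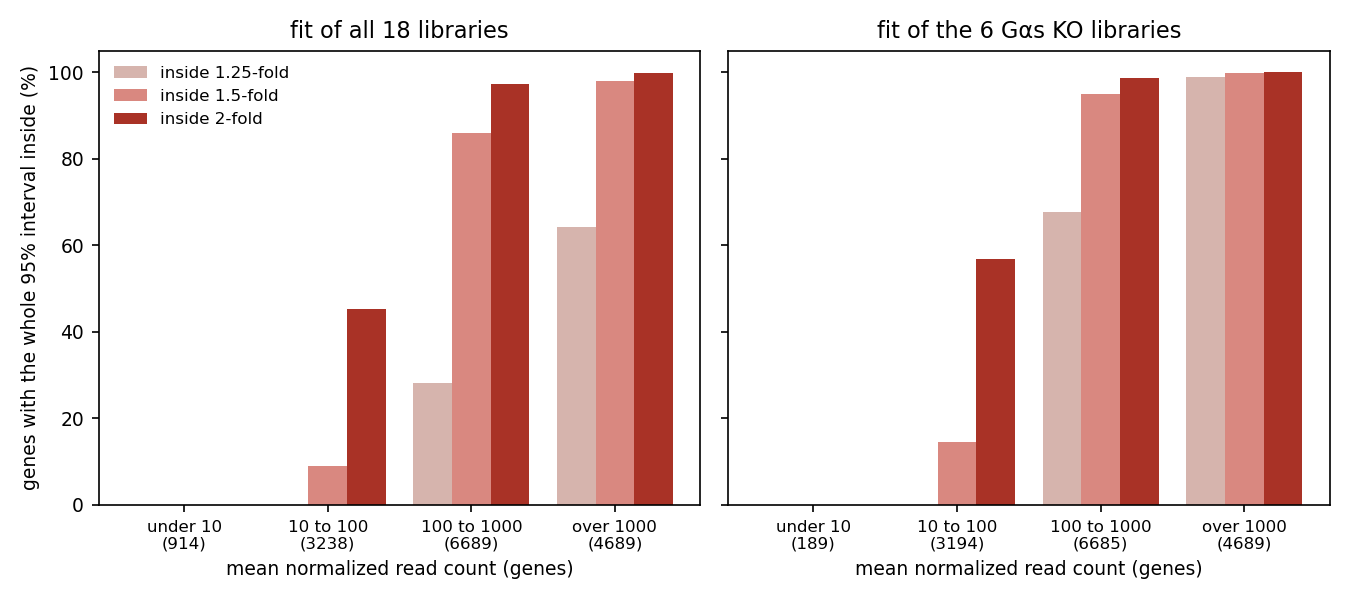
Share of genes (y axis, in percent) whose whole 95% interval of the isoproterenol effect in Gαs KO cells lay inside each of 3 fold limits, the smallest a ratio of 5 to 4 and the largest 2-fold, by mean normalized read count (x axis, number of genes in parentheses), for the 2 fits. Genes over 1000 counts reached 64.2% inside the smallest limit over all libraries and 98.9% in the own fit, and genes under 10 counts reached at most 0.1% inside 2-fold.

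The 64 genes that rose in wildtype cells had a median log2 fold change of 0.87 there and 0.04 in Gαs KO cells, with the middle 50% from -0.02 to 0.12. For all 64 the upper end of the Gαs KO interval lay below the wildtype value, for 48 below 50% of it and for 21 below 25%. This leaves out the error of the wildtype value, which also had to be large for a gene to be called. The difference between the 2 responses was itself called for 24 of the 64 (edgeR, adjusted p under 0.05). The own fit, with 63 of them tested, put 54 below 50% and 31 below 25%. In 9 of the 64 the Gαs KO conditions did not overlap upward (4.9% of all genes), namely CCN2, CCN1, FOS, EGR3, ATF3, TBX3, OTUD1, TRIB1 and FOXC2, and in 0 downward (5.57%). The 148 genes that rose in β-arrestin1/2 KO cells had a median of 0.80 there and 0.03 in Gαs KO cells, with 18 not overlapping upward and 8 downward.

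Single responders of the wildtype cells differed in the width of their Gαs KO intervals, each from the own fit. The wildtype values are from the fit of all libraries. DUSP1 (ENSG00000120129, chr5:172768090-172771195, minus strand), a phosphatase that switches off ERK and its relatives, stood at 1256, 1332 and 1289.9 counts with vehicle and 1258, 1271 and 1333 with isoproterenol in Gαs KO cells, with an interval from -0.10 to 0.09, against 2.52 in wildtype cells. JUNB, another AP-1 subunit, stood at 499.54, 599 and 522 and at 550, 521 and 604, with an interval from -0.14 to 0.23, against 2.78. NR4A2 had an interval from -0.27 to 0.48 against 3.52, and PCK1 one from -0.81 to 0.86 against 3.23. FOSL2, a further AP-1 subunit, was at -0.05 (-0.20 to 0.10) against 1.05, and DUSP5, a nuclear ERK phosphatase, at 0.36 (-0.05 to 0.77) against 0.80. NR4A1 was at 0.13, APOLD1 at -0.06, GEM at 0.26, RGS2 at 0.00, SOCS3 at 0.08, FOXQ1 at 0.16 and CSRNP1 at 0.15, where the wildtype values ran from 1.11 for CSRNP1 to 1.83 for NR4A1. NR4A3, at a low count, was at -0.51 (-1.36 to 0.33) against 2.32. The conditions overlapped in all of these 14 genes. For DUSP5, SOCS3, FOXQ1 and CSRNP1 the difference from the wildtype response was not called (edgeR, all libraries).

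**Figure D4:**
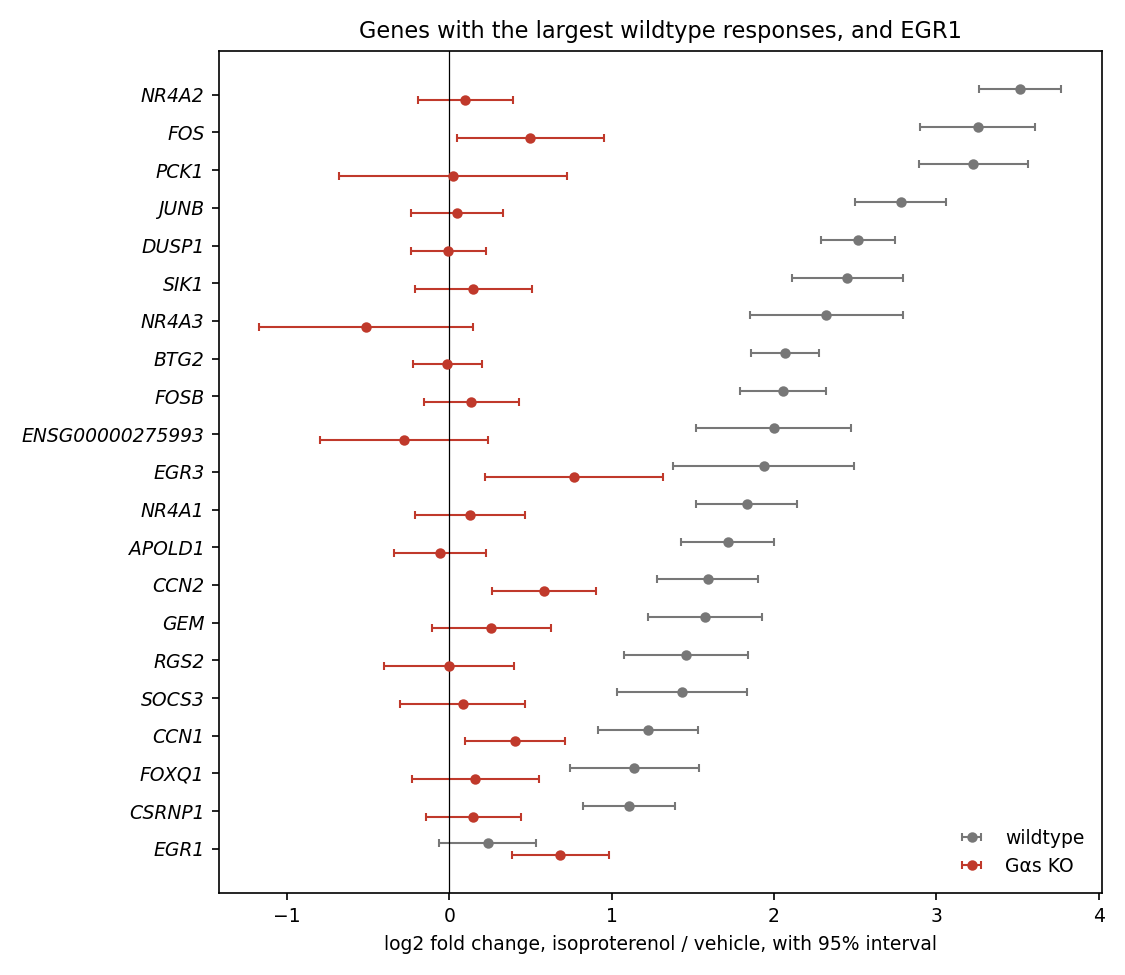
Log2 fold change, isoproterenol over vehicle, with its 95% interval (x axis) in the fit of all libraries, for the 20 genes with the largest wildtype response among those called in both other lines, and EGR1. Wildtype cells are in grey and Gαs KO cells in red. The red intervals of the 20 genes lie below the grey ones, those of FOS, EGR3, CCN2 and CCN1 lie above 0, and the EGR1 intervals overlap, from 0.39 to 0.98 in red.

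The difference of the Gαs KO response from the wildtype response was called for 25 genes (0.161%), 24 of them with the lower value in Gαs KO cells (0.155%). The difference from the β-arrestin1/2 KO response was called for 63 genes (0.406%). Both differences share the Gαs KO libraries. The 1 gene with the higher value was TXNIP, an arrestin-fold inhibitor of thioredoxin and glucose uptake, which fell by 1.04 in wildtype cells and was at 0.00 with an interval from -0.20 to 0.19 in Gαs KO cells. Without wildtype vehicle replicate 1 the count was 65 in place of 25. ENSG00000275993 is a near-identical copy of SIK1, so reads of the pair could be divided between them and both values are uncertain.

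Without overlap 865 genes (5.57%) lay lower with isoproterenol and 761 (4.9%) higher, and of the lower ones ETS2 and RAB33B are described here. ETS2, an ETS-family factor downstream of ERK, was at 370, 383 and 387 with vehicle and at 264, 271 and 294.49 with isoproterenol, without overlap. Its log2 fold change was -0.46 with an interval from -0.74 to -0.18 (edgeR, adjusted p = 1). In wildtype cells it was 0.50 and in β-arrestin1/2 KO cells 0.71, so the signs were opposite. The difference from the β-arrestin1/2 KO response, -1.17, was called (edgeR, adjusted p = 0.0052), and that from the wildtype response, -0.96, was not (adjusted p = 0.0601) but was without wildtype vehicle replicate 1 (adjusted p = 0.000179). RAB33B (ENSG00000172007, chr4:139453232-139476609, plus strand), a small GTPase of the Golgi and autophagy, was at 159.7, 163 and 214 and then at 60.7, 65.6 and 92.1, for a log2 fold change of -1.30 from -1.90 to -0.71 (edgeR, adjusted p = 1). DESeq2 called it over all libraries (adjusted p = 0.0176) and in the own fit (8.1e-06), and edgeR gave adjusted p = 0.116 in the own fit.

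The remaining genes with the smallest p included several at low counts. Of those below, SYNPO2L, GBX1, C6orf136 and ALOX5 did not reach 10 counts in every library, and these had the largest estimates. ACTN4, an actin-crosslinking protein, was at 1731, 1881 and 1617 and then at 2267, 2236.5 and 2122, with an interval from -0.22 to 0.90 over all libraries, which includes 0 (edgeR, adjusted p = 1), and from 0.23 to 0.46 in the own fit (adjusted p = 0.117). ZSCAN5A, RIN2, TMEM158, SYNPO2L and ENSG00000285816 lay higher without overlap, at log2 fold changes of 0.52, 0.58, 0.51, 1.95 and 0.47, and CNR2, XRRA1, GBX1 and C6orf136 lower, at -0.94, -0.42, -2.81 and -5.29. Without 1 library, C6orf136 was at -8.89 (isoproterenol replicate 3 left out) and SYNPO2L at 2.75 (vehicle replicate 1 left out). ALOX5 was at 26.1, 17.8 and 31.8 with vehicle and at 0 in all 3 isoproterenol libraries. By edgeR as described above, 0 of these genes were called in either fit. DESeq2 called ALOX5 in both fits and ACTN4, ENSG00000285816 and C6orf136 in the own fit, limma voom called ALOX5 in the own fit, and edgeR without legacy mode called C6orf136 there.

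Of the 19 lists, calcium and NFAT targets had the largest median, 0.11 over 12 genes, which lay above the upper quartile of all genes tested (0.061). In each list the members that did not overlap are read beside 4.9% higher and 5.57% lower of all genes. Among the calcium and NFAT targets 2 lay higher and 2 lower, with EGR3 and PTGS2 higher and RCAN2 and ATP2B4 lower without overlap. PTGS2, the inducible cyclooxygenase, was at 10.3, 21.6 and 9.2 and then at 53.8, 23.5 and 29.6 counts, with an interval from -0.35 to 3.13. ATF4 and unfolded protein response genes had a median of 0.06 over 18 genes, with PPP1R15A and SLC7A11 higher and CEBPB lower without overlap. CHAC1 (0.31) and VLDLR (0.24) overlapped. ERK feedback inhibitors had 0.06 over 14 genes, and 0 of them lay apart between conditions. DUSP6, a cytoplasmic ERK phosphatase, was at 0.31 (-0.25 to 0.88) and SPRY1, a Sprouty inhibitor, at 0.23 (-0.17 to 0.63). Hypoxia and glycolysis genes had 0.03 over 20 genes, with 5 higher without overlap and 0 lower (4.9% and 5.57% of all genes), of which HK2, the hexokinase, had the largest log2 fold change, 0.25 (-0.04 to 0.55). Genes such as FOS, EGR3, CCN1 and CCN2 stand in more than 1 list, so the lists are not independent.

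YAP and actin-SRF targets had a median of 0.00 over 20 genes, with CCN1 and CCN2 higher and TEAD1, ACTB, ACTG1 and CNN1 lower without overlap, where 4.9% of all genes were higher and 5.57% lower. The median was -0.03 for sterol synthesis genes, 0.02 for NF-kB targets, -0.01 for heat shock genes, 0.04 for p53 targets, 0.03 for clock genes, 0.01 for cell cycle genes, -0.02 for Notch targets, -0.02 for mitochondrially encoded mRNAs and 0.02 for 76 ribosomal protein genes. Members with the largest estimates had wide intervals, such as RRM2, a ribonucleotide reductase subunit, at 0.71 (-0.59 to 2.00), NFKB2, an NF-kB subunit, at -0.67 (-1.62 to 0.29), and HES5, a Notch effector, at 0.51 (-0.95 to 1.99). HSPA8, the constitutive chaperone, had a narrow one, at -0.08 (-0.19 to 0.03). TGF-beta, BMP and WNT targets, interferon-stimulated genes and the receptor, G protein and arrestin genes were within 0.01 of 0. Within the last list ARRB1 was at 0.06 (-0.23 to 0.35) and ARRB2 at -0.01 (-0.32 to 0.30). No member of the 19 lists was called by edgeR in Gαs KO cells over all libraries.

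**Figure D5:**
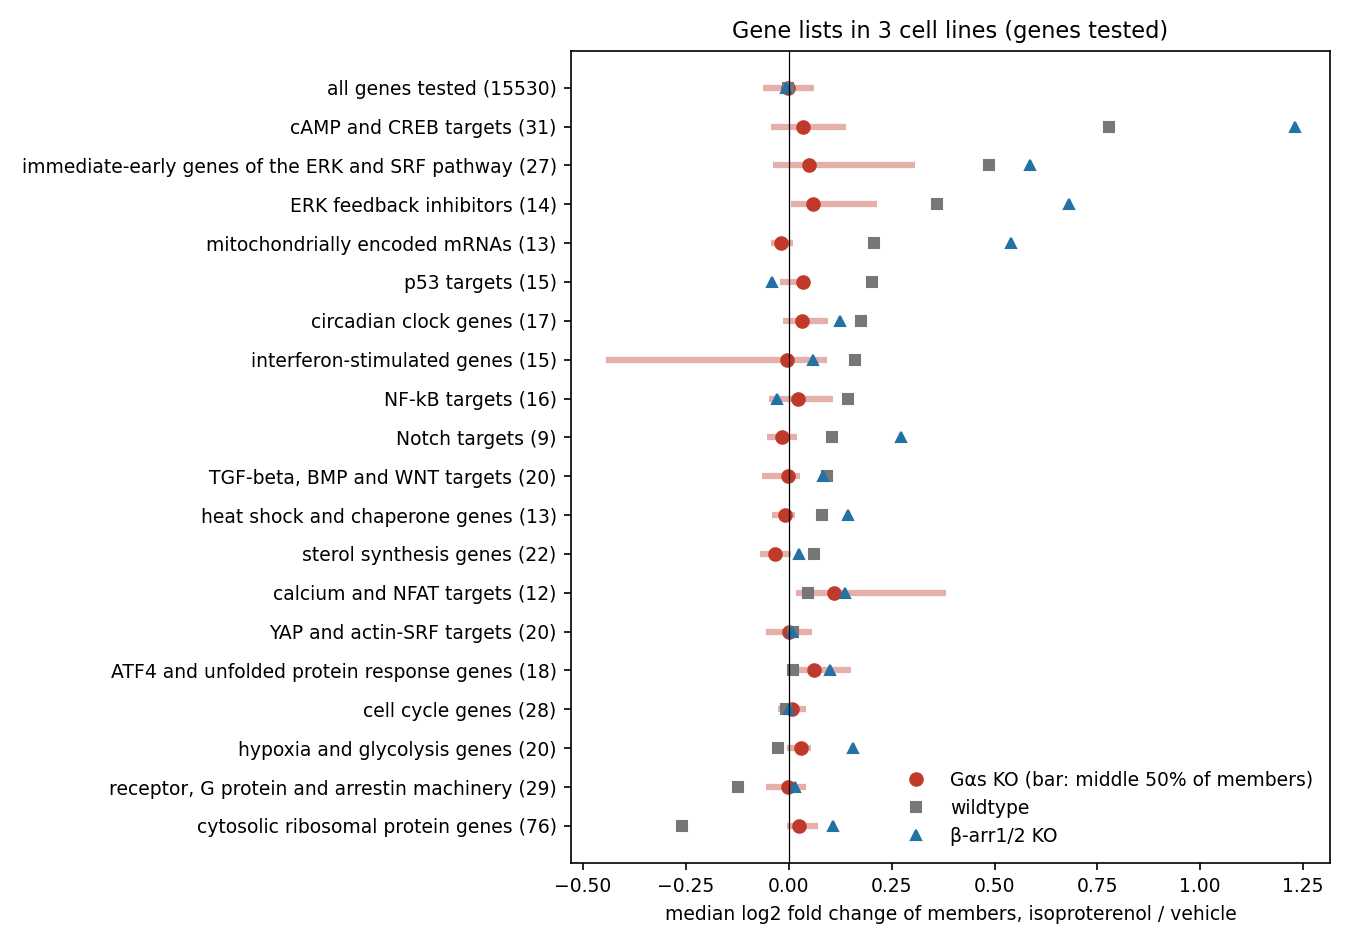
Median log2 fold change, isoproterenol over vehicle (x axis), of the members of each gene list (number tested in parentheses) in Gαs KO (red, with the middle 50% of members as a bar), wildtype (grey) and β-arrestin1/2 KO cells (blue). The red points lie between -0.03 and 0.11, and the cAMP and CREB list has the largest medians in the other lines, 0.78 and 1.23.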

How the data were processed

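The 18 RNA-Seq libraries covered 3 HEK293 lines with 3 replicates per condition. Salmon 1.7.0 had been run by the authors on paired 150-bp reads (versions from their processing notes), and its expected counts for each transcript were deposited without normalization. The transcript index is not given in the sources used here. Of 184844 transcripts, 161838 were joined by Ensembl identifier to 34287 genes of GENCODE 29 (GRCh38), which kept 92.9 to 93.8% of the counts of a library. Gene sums were rounded. Totals ran from 17908597 to 25019834, and 0 sample columns were left unused.

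Genes were filtered with filterByExpr, scaled by TMM and fitted in edgeR 4.0.16 (R 4.3.3) with a coefficient for each of 6 groups and the legacy quasi-likelihood test. Intervals of 95% used the unshrunken coefficient, the quasi-dispersion and a t quantile. Genes with an adjusted p under 0.05 were called. Single values were compared by exact permutation test (scipy 1.17.1). Alternatives used DESeq2 1.42.0 and limma 3.58.1. The pipeline was tested on simulated data.

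Named genes are GNAS, ARRB1, ARRB2, any gene called, the 10 smallest p of both fits, the 20 largest wildtype responses called in both other lines, up to 4 members of each of 19 lists by size of change, and PCK1, DUSP1, FOS, FOSL2, JUNB and DUSP5. Others are named where they are few or did not overlap. The comparison, lists and rule were chosen with earlier results of these data known. Some members picked by size of change, and 1 gene among the smallest p, are not described, and 1 further gene that the rule names is not reported here. RefSeq promoters were found for 10 of 15 genes looked up.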

Additional observations from a re-analysis of the deposited data

Results flagged for a closer look

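The response to isoproterenol differed between Gαs KO and wildtype cells for 25 genes by a test of the difference itself (edgeR's quasi-likelihood test, Benjamini-Hochberg adjusted p under 0.05), and 15 of them are named here. On the log2 scale, Gαs KO minus wildtype, the difference was -3.42 for NR4A2, -3.20 for PCK1, -2.83 for NR4A3, -2.76 for FOS, -2.73 for JUNB, -2.52 for DUSP1 and -2.30 for SIK1. It was -2.28 for ENSG00000275993, the near-identical copy of SIK1, -2.08 for BTG2, -1.92 for FOSB, -1.77 for APOLD1, -1.71 for NR4A1, -1.46 for RGS2, -1.32 for GEM and -1.10 for FOSL2. With 3 libraries in each group, Dixon's check on the outermost library of a group was not run.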

How the results depend on the processing

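The count of 0 genes called in Gαs KO cells was 9 with DESeq2's Wald test, 2 with limma voom and 3 with GC and length offsets plus a replicate block (DCAF11, TRIM27 and EGR1), and 0 with the other scalings, filters and leave-one-out fits of all libraries. In the fit of the 6 Gαs KO libraries, alternatives chosen after seeing the data gave 8 with DESeq2, 2 with limma voom, 2 in edgeR without legacy mode, 1 with at least 10 counts in every library, and 1 to 7 with 1 library left out, none of which included EGR1. The 25 differences from wildtype cells became 68 with DESeq2, 108 with limma voom, 15 with only the libraries compared, 65 without wildtype vehicle replicate 1, 53 with GC and length offsets, 50 with these and a replicate block, and 19 to 23 with 1 Gαs KO library left out. The median half-width of 0.344 became 0.173 with limma voom and with only the libraries compared, and 0.205 without wildtype vehicle replicate 1. It was 0.223 with the offsets, 0.226 with offsets and block, and 0.400 to 0.401 with 1 Gαs KO library left out. With all genes of at least 1 count it was 0.366, and with unmatched transcripts kept 0.456, the widest. Genes within 2-fold ran from 12204 to 13363, but the settings tested different numbers of genes. The 13363 stood among 22470 tested with unmatched transcripts kept, beside 12651 of 15530 in the main fit. Deviations of same-numbered Gαs KO libraries had correlations of -0.04, 0.06 and 0.00, so no shared deviation was seen. Whether same-numbered libraries were handled together is not given in the labels. A replicate block gave 0 calls in Gαs KO cells and 21 differences from wildtype cells, 12526 genes within 2-fold and a half-width of 0.363. Depth also limits these values, and genes under 10 counts had a median half-width of 1.63 log2 units. The causes were not tested.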

Other observations

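Some values in Gαs KO cells moved with 1 library. DUSP8, a JNK phosphatase, was at 46.7, 39.4 and 56.1 normalized counts with vehicle and at 50.9, 57.8 and 151 with isoproterenol, and its log2 fold change of 0.86 was 0.20 without isoproterenol replicate 3. ADCY7, an adenylyl cyclase, was at 450, 404 and 430.5 with vehicle and at 416, 126 and 408 with isoproterenol. RIGI, a sensor of viral RNA, was at 0, 0 and 88 with vehicle and at 15.7, 0 and 11.4 with isoproterenol, and its log2 fold change of -1.72 was 6.17 without vehicle replicate 3. RPS9, a ribosomal protein gene, ran from 119 to 902 counts within the vehicle group. These counts are Salmon estimates that divide reads between transcripts.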
